A study of Homo sapiens with 4 samples.

Results

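The genes described here were 10 imprinted genes outside the domain of IGF2 and H19: DLK1, MEG3, PEG10, SGCE, MEST, SNRPN, NDN, GNAS, PLAGL1 and PEG3. They were taken by name from the GENCODE release 44 annotation of hg38, as 10 of 38726 protein-coding and lncRNA genes on chromosomes 1 to 22 and X. To each gene were assigned the SMC1 and CTCF peaks with a summit in the gene body or within 50 kb of the gene start, and the chromatin loops with a 5 kb anchor within 5 kb of any of its transcript starts. This gave 38 distinct SMC1 peaks, 26 distinct CTCF peaks, 7 loops labelled SMC1 and 30 loops labelled CTCF.

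HiChIP joins proximity ligation of chromatin with immunoprecipitation of a protein, so that it records both where the protein sits and which distant fragments it holds together. In HG00731, a lymphoblastoid cell line (B lymphocytes made to grow by Epstein-Barr virus), the study performed 2 HiChIP experiments: SMC1, a core subunit of the cohesin ring, with formaldehyde plus EGS as a second cross-linker (FA-EGS HiChIP), and CTCF, the zinc finger protein at which cohesin stops, with formaldehyde alone (FA HiChIP). No treatment was applied, and the 2 targets were set side by side in unperturbed cells. The study reports more reads for SMC1 than for CTCF, so target, cross-linking and read depth cannot be told apart. Each target had 2 biological replicates, which the authors pooled for the 1 peak list and 1 loop list of each target analysed here: these hold no value per replicate, no difference below could be tested against replicate spread, and every value is a description of pooled lists.

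An imprinted gene is transcribed mainly from the chromosome inherited from 1 parent, and the choice is set by DNA methylation laid down in the egg or the sperm at an imprinting control region. CTCF can act in such domains because methylation of its motif can block binding, which may leave the protein on the unmethylated parental chromosome. The deposited lists count reads of both parental chromosomes together, so a peak or a loop below says nothing of the parent of origin, and a domain in which only 1 chromosome is bound appears as a peak all the same. The lists hold no expression.

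The genes were ordered by domain, since genes of a domain share peaks and loops. On chromosome 14 lie DLK1, a paternally expressed ligand-like membrane protein of the Notch family, and MEG3, a maternally expressed lncRNA. The start of PEG10, a paternally expressed gene derived from a retrotransposon, faces that of SGCE, which encodes epsilon-sarcoglycan, on chromosome 7. MEST, a paternally expressed gene with an alpha/beta hydrolase fold, lies further along the same chromosome. On chromosome 15, in the Prader-Willi domain, SNRPN encodes a small nuclear ribonucleoprotein subunit and NDN encodes necdin, a growth suppressor of neurons. GNAS on chromosome 20 encodes the stimulatory G protein alpha subunit and has alternative promoters with different imprints. PLAGL1 on chromosome 6 and PEG3 on chromosome 19 encode zinc finger transcription factors expressed from the paternal copy.

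The peak lists held 97364 SMC1 and 63555 CTCF peaks, and the loop lists 28012 loops labelled SMC1 and 80487 labelled CTCF, with 788356 and 2666327 read pairs in all. The labels of the loop lists disagree with the study's own table of loop numbers, where the number belonging to the list labelled SMC1 stands under CTCF and the reverse. Loops are therefore given by the label of their list, with the labels unchanged, and the counts with the lists exchanged stand among the alternatives. MAPS calls loops at bins that hold a peak of the protein under study. Over the whole lists, all 80487 loops labelled CTCF had an SMC1 peak in an anchor (100%) and 76742 a CTCF peak (95.3%), while all 28012 loops labelled SMC1 had a CTCF peak in an anchor and 28001 an SMC1 peak. Both these counts and the loop numbers are what exchanged labels would give. A loop label below therefore names a list and should not be read as the protein. Of 4 B cell genes looked up (MS4A1, CD79A, PAX5 and EBF1), all 4 had an SMC1 peak within 1 kb of a transcript start and a loop labelled CTCF. Of all protein-coding genes, 66.1% and 59.0% did. A CTCF peak stood there at 2 (PAX5 and EBF1, against 49.7%), and 3 (CD79A, PAX5 and EBF1) had a loop labelled SMC1 (against 35.1%). Counts over 4 genes, beside such shares, cannot serve as a check of the cell type.

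The sites that the CTCF results turn on are shown first, because the direction of a CTCF motif relates to the direction in which a loop leaves it. A motif 19 bp long was learned from the strongest CTCF summits on chromosomes without any of the 10 genes, and its most frequent letters read NGCCACNAGGGGGCGNNNN. Each line gives hg38 sequence of the named strand, 5′ to 3′, with 5 bases on either side in lower case and the best motif match of the CTCF peak in capitals.
DLK1, 15.8 kb upstream of the gene start, chr14:100709866-100709894, plus strand: acgcgCGCCGGCAGGGGGCGCGGCgggct
MEG3, intron, beside a transcript start, chr14:100827290-100827318, plus strand: tggctGGCCGCGAGAGGGCGCTGGcggca
MEG3, exon, chr14:100851309-100851337, plus strand: gttttGCCCACCAGGGGGCAGCAGagggt
PEG10 and SGCE, SGCE intron, chr7:94655750-94655778, plus strand: gggagGGGCCCGCGGGGGCGCGGAgagga
MEST, exon, chr7:130486183-130486211, plus strand: cgcctGGCAGGGAGAAGGCGGCAGcacat
NDN, intergenic, chr15:23642584-23642612, plus strand: taatcTGCCGCTAGGTGGCAGGAGaattc
NDN, intergenic, chr15:23649098-23649126, plus strand: aaacgTGCCACCAGGGGGCAGATGaggac
GNAS, exon, chr20:58852854-58852882, minus strand: ctctcTGCCACCAGAGGACGCCGGttcca
GNAS, intron, chr20:58870450-58870478, plus strand: ctcctCCCCACCAGAGGTCAGCAGagagc
GNAS, intron, chr20:58891866-58891894, plus strand: gtaagGGCGGGCGGGGGGCGCCGGccccg
PLAGL1, exon, chr6:143942280-143942308, plus strand: gtgtgGACCACCAGGTGGCGTCGCacatc
PLAGL1, intron, chr6:144013587-144013615, minus strand: actagAGCCACTAGATGGCGCCTGcggcc
PLAGL1, intron, chr6:144064116-144064144, plus strand: ggggcGGGCGCTAGGTGGCGGCTGttcag

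A match counted as a motif at 10 bits or more, bits being the log2 odds of the matched letters under the motif against the background. Of the 26 CTCF peaks, 19 (73.1%, 95% Wilson interval 53.9 to 86.3, which covers counting error only) held a motif, where 57.5% of all CTCF peaks of the list did. The best scores stood at MEG3, with 20.9 bits at the exonic site and 19.45 bits at the intronic one, and at DLK1 with 18.95 bits. The 2 MEG3 sites had the same letter at 11 of the 19 positions, the DLK1 site matched the intronic MEG3 site at 13, and the 2 NDN sites matched each other at 14. High scores also stood under weak peaks, as the DLK1 site and the intronic MEG3 site lay under peaks weaker than most of the list. A match could lie anywhere in its peak, and 12 of the peaks held a motif within 100 bp of the summit. The printed GNAS site at 58891866 lay 618 bp and the NDN site at 23642584 lay 265 bp from the summit.

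An SMC1 peak in the window was present at 8 of the 10 genes, against 87.5% of all genes and 92.5% of protein-coding genes, and a CTCF peak at 8, against 86.7% and 92.0%. Each target missed a different pair. DLK1 and PEG3 had no SMC1 peak, SNRPN and PEG3 had no CTCF peak, and PEG3 alone had neither, a state shared by 10.4% of all genes. Within 1 kb of a transcript start, 6 of 10 genes had an SMC1 peak (48.9% of all genes, 66.1% of protein-coding genes) and 6 had a CTCF peak (35.6% and 49.7%). The genes with SMC1 at a start were PEG10, SGCE, MEST, SNRPN, GNAS and PLAGL1, and those with CTCF there were MEG3, PEG10, SGCE, MEST, GNAS and PLAGL1. These shares were not adjusted for the number of annotated starts, which was 73 at SGCE, 59 at GNAS, 34 at MEG3 and 1 at NDN.

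The number of peaks per gene spread widely. PLAGL1 had 12 SMC1 and 9 CTCF peaks, numbers that 14.6% and 11.6% of all genes reached or passed. GNAS had 8 of each, SGCE 6 SMC1 and 2 CTCF, PEG10 and MEST 5 and 2 each, NDN 4 and 2, MEG3 1 and 2, SNRPN 2 and 0, and DLK1 0 and 1. The medians over all genes were 6 SMC1 and 4 CTCF peaks, so only GNAS and PLAGL1 lay above both, and the 3 genes of longest span (SNRPN with 155.1 kb, SGCE with 132.4 kb and PLAGL1 with 124.3 kb) ranged from 2 to 12 SMC1 peaks.

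**Figure D1:**
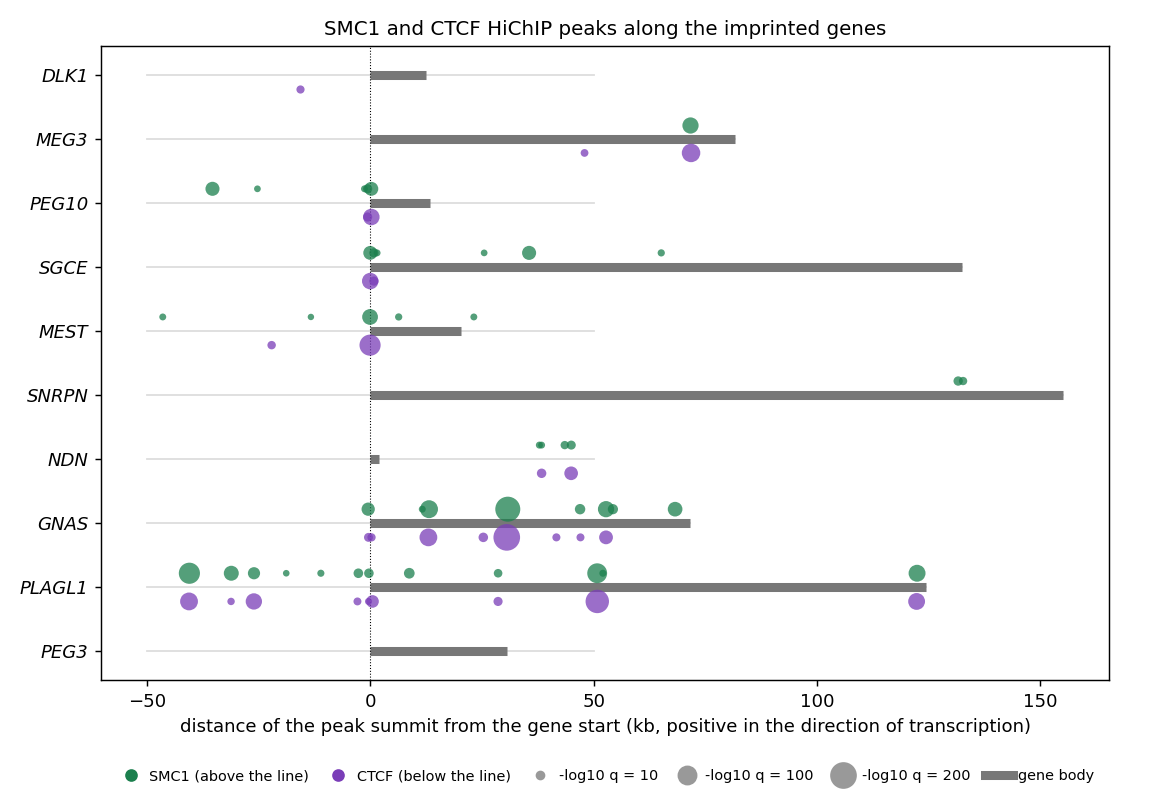
Position of each SMC1 peak (green, above the line) and CTCF peak (purple, below the line) relative to the start of each gene in kb, positive in the direction of transcription, with point area rising with −log10 q and the gene body as a grey bar. PLAGL1 (12 SMC1 and 9 CTCF peaks) and GNAS (8 and 8) were lined with peaks, and the line of PEG3 is empty. Those of DLK1, MEG3, SNRPN and NDN carry no peak near the gene start, the closest being that of DLK1, 15.8 kb upstream.

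On chromosome 14, DLK1 was bare of cohesin. Its only peak was a CTCF peak at chr14:100709698-100710045, 15.8 kb upstream of the gene start, between genes, with a fold enrichment over the local background of 4.805 and a −log10 q of 11.7. By −log10 q this peak exceeded 38.1% of the CTCF list. The nearest SMC1 summits lay 61.8 kb upstream and 125.2 kb downstream of the DLK1 start, and no loop of either label touched or spanned it. Neither list held a peak summit in the 117.5 kb between this CTCF summit and the next one inside MEG3, a stretch that holds the whole DLK1 gene and the annotated start of MEG3.

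MEG3 had a pair of CTCF sites of very different strength. The annotation starts MEG3 at an upstream transcript, and the RefSeq starts lie 46.7 kb further in. Near them, 1.27 kb downstream of the first and 33 bp from a GENCODE transcript start, stood the CTCF peak chr14:100826915-100827395 with a fold enrichment of 4.37 and a −log10 q of 9.555. It overlapped no SMC1 peak, and the nearest SMC1 summit was 24.8 kb from that RefSeq start. The second CTCF peak, chr14:100850645-100851539 in an exon of MEG3, reached 10.8-fold with a −log10 q of 105.5, and an SMC1 peak of 6.86-fold and −log10 q 78.7 (chr14:100850502-100851432) overlapped it. Within the same lncRNA, the CTCF site at the start thus lay below the median fold of the list (5.01) and without cohesin, while the one in the gene body lay above the upper quartile (8.31) and with cohesin.

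From MEG3 the loops ran only downstream, away from DLK1, and far. The bin of the exonic peak (from 100850001) was joined over 385 kb to the bin from 101235001, with 14 read pairs against 1.96 expected in the list labelled SMC1 and 23 against 1.67 in the list labelled CTCF. It was also joined over 775 kb to the bin from 101625001, with 21 against 2.225 and 22 against 1.75 read pairs, or 9.44 and 12.5 times the expectation. In this second partner bin lies within 5 kb a start of DIO3OS, the antisense RNA of DIO3, an imprinted deiodinase gene whose own start is 63.5 kb away. Another loop, labelled SMC1 alone, left the bin of the weak CTCF peak at the MEG3 start for the same DIO3OS bin, over 800 kb, with 12 read pairs against 1.5 expected. All 5 were of the kind in which the motif of the left anchor is forward and that of the right anchor reverse, that is, the motifs point at each other (convergent). Both loops labelled CTCF join the same bins as loops labelled SMC1, and the orientation belongs to the bins, so these are not 5 separate cases. Per expectation, the 2 loops labelled CTCF stood above 98.4% and 97.75% of their list. By read pairs they stood above only 48.55% and 45.46% of it. The loop of 800 kb had no SMC1 peak in its MEG3 anchor, and no loop of its list had fewer read pairs.

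At PEG10 and SGCE, which start head to head on opposite strands, cohesin and CTCF were both on the shared promoter. The CTCF peak chr7:94656281-94656812, in exons of both genes, reached 10.9-fold with a −log10 q of 81.8, and the SMC1 peak over it (chr7:94656338-94657069) reached 6.05-fold with 54.9. Its best motif match scored 6.37 bits, under the minimum, so this strong CTCF peak held no motif as counted here. A second, weaker pair stood in the first intron of SGCE, with CTCF at 4.59-fold over the printed site of 10.3 bits and SMC1 at 3.47-fold. Both CTCF peaks of these genes had their summits within 0.823 kb of the SGCE start.

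Cohesin without CTCF was found inside SGCE. The SMC1 peak of largest fold in its window, chr7:94620696-94621380 over an SGCE exon and 558 bp from a transcript start, reached 7.51-fold with a −log10 q of 56.3 and overlapped no CTCF peak. The other 3 SMC1 peaks without CTCF ranged from 2.25- to 3.14-fold, all below the median of the list (3.32). On the other side, towards and beyond PEG10, there was no summit of either target for 389.1 kb, a stretch that begins 2 bp from the SGCE start, covers nearly all of the PEG10 body and holds the start of PPP1R9A, a neuronal gene of the domain. It was longer than 99.6% of the 159701 gaps between neighbouring summits, of which the median was 4.31 kb.

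Every loop of the shared promoter was labelled CTCF and ran over the SGCE body to the side without PEG10. The 4 partner bins lay 145 to 210 kb away. Those from 94505001 and 94510001 (12 read pairs against 2.82 expected, and 17 against 3.66) held a start of CASD1, a sialic acid acetyltransferase gene of the same domain. The others, from 94450001 and 94445001 (16 against 2.21, and 14 against 2.9), had COL1A2, a collagen gene, as the nearest coding start, 22.7 and 17.7 kb away. None of the 4 had a loop labelled SMC1 with both anchors within 15 kb. Orientation was read from the CTCF peak of highest −log10 q in each anchor, which at the promoter held no motif. The printed site of 10.3 bits lies in the same bin under the weaker peak and was not used, so none of the 4 was given an orientation.

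MEST carried its strongest peaks of both targets on the start itself. CTCF at chr7:130485427-130486459 reached 12.3-fold with a −log10 q of 141.3, and SMC1 at chr7:130485427-130486403 reached 6.87-fold with 73.7. The summits lay 38 and 40 bp upstream of the MEST start, over an exon of MESTIT1, its antisense lncRNA. The motif there scored 11.5 bits, far lower than those of DLK1 and MEG3, under a peak stronger than 89.4% of the CTCF list. The other 4 SMC1 peaks (2.36- to 2.96-fold) were all below the median of the list, and the other CTCF peak, 22068 bp upstream, was at 5.1-fold. The latter was just above the median of the CTCF list, so the strong peaks of both targets stood at the start alone.

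The MEST start was joined to both sides. To the left it met the bin from 130240001, 245 kb away, with 16 read pairs against 4.05 expected (labelled SMC1) and 19 against 4.6 (labelled CTCF). To the right it met the bin from 130695001, 210 kb away, with 15 against 3.43 and 17 against 3.73, and, labelled CTCF alone, the bin from 130755001, 270 kb away, with 21 against 4.47. TSGA13 and KLF14 had the nearest coding starts to the 2 right bins, 7.57 and 20.8 kb away. KLF14, an intronless transcription factor gene, belongs to the same imprinted domain. Only the last loop was convergent. The left one was tandem, both motifs pointing to the right, and the bin from 130695001 had no motif.

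The partners of MEST were also joined to each other past it. Of the 12 loops labelled CTCF that spanned the MEST start, the one with most read pairs connected the bins from 130240001 and 130755001 over 515 kb, with 49 read pairs against 4.15 expected, or 11.8 times the expectation, and was convergent. In the list labelled SMC1, 2 loops spanned the start, and the one with most read pairs connected the bins from 130240001 and 130695001 with 16 against 2.73. In the list labelled CTCF the 2 outer bins thus held more pairs with each other over 515 kb than with MEST over 245 and 270 kb.

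On chromosome 15, SNRPN had cohesin without CTCF. Its 2 SMC1 peaks lay side by side 131.6 and 132.7 kb into the annotated gene, at 2 of the 4 RefSeq starts of SNRPN, where the overlapping SNURF reading frame also begins. The other RefSeq starts, 32.9 and 39.3 kb into the gene, had no peak, and their nearest SMC1 summits were 98.6 and 92.2 kb away. The larger, chr15:24954778-24955563, was 199 bp from a SNRPN transcript start, with a fold of 4.76 and a −log10 q of 18.65, and the other (chr15:24955950-24956522) had 3.999-fold and 12.5. Both exceeded the median fold of the SMC1 list. No CTCF peak lay in the window of SNRPN, the nearest CTCF summit was 181.5 kb from this start, and no loop of either label reached a start of the gene or spanned its annotated start. Upstream of these peaks, 193.5 kb were free of summits.

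This SNRPN promoter is known as the imprinting control region of the Prader-Willi domain, methylated on the maternal chromosome. It is printed because it carried cohesin with no CTCF peak. The bases shown are those of the RefSeq promoter up to the start that lie outside exons of coding genes, hg38 chr15:24954737-24954934, plus strand, and the capitals mark GCGGCA, the reverse complement of TGCCGC, the core that the imprint-protecting zinc finger protein ZFP57 reads when methylated.
SNRPN promoter: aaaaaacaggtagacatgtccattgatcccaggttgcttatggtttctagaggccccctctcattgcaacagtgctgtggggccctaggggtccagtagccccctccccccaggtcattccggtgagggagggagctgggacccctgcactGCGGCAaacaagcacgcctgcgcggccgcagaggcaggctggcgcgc

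RefSeq promoters of 300 bases (250 before the start and 50 after) were at hand for 6 of the 10 genes, with 24 windows in all. TGCCGC on either strand stood in 12 of the 24, and in 16.8% of all 34961 RefSeq promoters. Windows of a gene can overlap, so the 12 are not separate promoters. The match says only that the letters are there. An SMC1 peak overlapped 9 of the 24 windows (32.1% of all promoters) and a CTCF peak 6 (18.3%). The windows of the 6 genes had a median G and C content of 60% and a median ratio of observed to expected CpG of 0.666, against 58.7% and 0.58 over all promoters.

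NDN, a gene of 1.91 kb without introns, had no peak near its start. All 6 peaks in its window lay 37.9 to 45.0 kb downstream, around MAGEL2, a neighbouring paternally expressed gene without introns. The CTCF peaks reached 10.1-fold with a −log10 q of 52.5 (chr15:23642265-23642610) and 6.15-fold with 19.4 (chr15:23648809-23649173), over the printed motifs of 16.45 bits and 17.5 bits. SMC1 overlapped both, at 4.66- and 2.855-fold, and stood alone over a MAGEL2 exon at 4.09-fold and at 2.95-fold 1582 bp from the MAGEL2 start. No loop of either label reached the NDN start, and none spanned it. The 2 CTCF peaks with motif and cohesin lay 38.4 and 45.0 kb from that start, beyond the 5 kb within which loop anchors were counted. In the other direction NDN lay in a stretch of 228.9 kb without a summit, longer than 99.0% of all gaps.

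Elsewhere in the domain the values were mixed. Around UBE3A, the Angelman syndrome gene on the far side of SNRPN, SMC1 reached 7.50-fold and CTCF 9.76-fold within 1 kb of a start, and ATP10A next to it had 5 SMC1 and 4 CTCF peaks within 1 kb of its starts. MKRN3 and NPAP1, on the side of NDN, had no SMC1 peak in their windows, and NPAP1 had no CTCF peak.

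**Figure D2:**
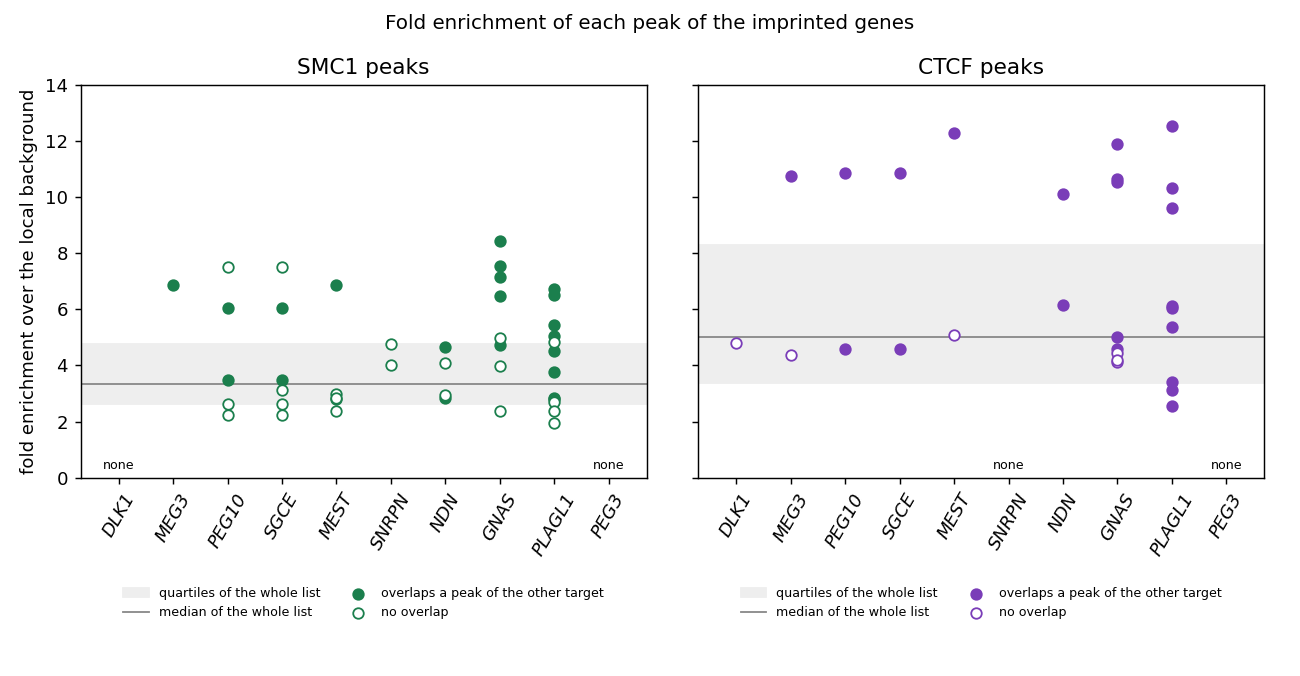
Fold enrichment over the local background of each SMC1 peak (left) and CTCF peak (right) in the window of each gene, filled where the peak overlaps a peak of the other target, with the median (line) and quartiles (grey band) of the whole list. Peaks of PEG10 and SGCE are drawn for both genes. The CTCF peaks above the upper quartile of the list, 8.31-fold (MEG3, PEG10 and SGCE, MEST, NDN, GNAS and PLAGL1) are all filled, and the SMC1 peaks of SNRPN are open.

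GNAS was occupied by both proteins at several of its promoters, and 3 of its 6 RefSeq promoter windows were overlapped by a peak of each target. At the first start, near which the NESP55 transcript begins, SMC1 reached 7.155-fold and CTCF 4.999-fold, over an exon of the antisense RNA GNAS-AS1, while the RefSeq window 1.9 kb further on had no peak. At 13.02 kb, where the transcript of the extra-large protein starts, CTCF reached 10.55-fold and SMC1 8.435-fold, the largest SMC1 fold among all peaks of the 10 genes. In the intron beyond, 17012 bp from the nearest start of the gene, stood the most significant peaks of the set, CTCF at chr20:58870099-58870912 with 11.9-fold and a −log10 q of 230.7, and SMC1 at chr20:58869005-58871309 with 6.49-fold and 201.9. At 52.8 kb, where the transcript of the stimulatory alpha subunit starts, both were present again, with CTCF at 10.6-fold and SMC1 at 7.53-fold. Short of it, the RefSeq windows at 48.7 and 49.5 kb, of the alternative first exons known as A/B, were overlapped by no peak, and the nearest SMC1 summits were 1.73 and 2.49 kb away.

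Towards the end of GNAS, cohesin stood without CTCF. The SMC1 peak at chr20:58907134-58908305, in a GNAS exon and 26 bp from an annotated start, reached 4.98-fold with a −log10 q of 62.2 and overlapped no CTCF peak, as did those at 3.98- and 2.36-fold. In the reverse case, the CTCF peaks without SMC1 were weak, with 4.115-, 4.2- and 4.45-fold, all under the median of the CTCF list. Of 8 peaks of each target, 5 overlapped a peak of the other.

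GNAS had the most loops labelled CTCF of the 10 genes, 12, a number reached by 8.01% of all genes, and none labelled SMC1. Loops were counted at any of its 59 distinct transcript starts, and the comparison with all genes was not adjusted for the number of starts. Leftwards, the bin of the extra-large start (from 58850001) met the start of STX16, a syntaxin gene whose deletions are known to disturb GNAS imprinting, over 200 kb, with 27 read pairs against 4.89 expected and convergent motifs. The neighbouring STX16 bin gave 15 against 2.27. No other loop of GNAS ran to that side.

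Rightwards, the 10 other loops left the latter part of the gene. Inside it, the bins from 58890001 and 58905001 were joined over 15 kb with 63 read pairs against 28.8. From the bin 58905001, where cohesin lacks CTCF, loops reached NELFCD, a subunit of a transcription pausing complex, with 51 against 13.8, CTSZ, a lysosomal protease gene, with 45 against 12.85, and PRELID3B with 20 against 6.975. From the bin 58890001 they reached NELFCD with 40 against 7.27, ATP5F1E, an ATP synthase subunit gene, with 19 against 4.69, CTSZ with 18 against 6.98 and PRELID3B with 12 against 3.96. The remaining loops were 24 against 7.61 to the neighbouring NELFCD bin and 15 against 5.45 from the bin 58885001 to CTSZ. Of these 10, only that to ATP5F1E was convergent. Those from the bin 58890001 to CTSZ and PRELID3B were tandem, and that from the bin 58885001 to CTSZ was divergent, its motifs pointing apart. The others lacked a motif at an anchor and could not be given an orientation. The forward motif of the bin from 58890001 lay 618 bp from the summit of its CTCF peak. Every partner bin of GNAS lay within 1.27 kb of a start of a coding gene (or contained it), unlike those of MEG3, MEST and PEG10 with SGCE, most of which were over 5 kb from any.

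Of the 30 loops labelled CTCF, all 30 had an SMC1 peak in an anchor and 28 had a CTCF peak in an anchor, close to the shares of the list given above (100% and 95.3%). The 2 without CTCF at either anchor were those of GNAS from the bin 58905001 to the 2 NELFCD bins, with 51 and 24 read pairs. Of the 7 loops labelled SMC1, all 7 had a peak of each target in an anchor.

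PLAGL1 had the most peaks of the 10 genes, and its strongest site was not at its first start. CTCF at chr6:144013412-144014517, in an intron 50.8 kb into the gene, reached 12.55-fold with a −log10 q of 175.8, and SMC1 at chr6:144013395-144014569 reached 6.52-fold with 123.2. At the first start, CTCF stood on both sides at 6.06- and 2.57-fold and SMC1 at 2.81-fold. Of SMC1, the most significant peak of the window was upstream, at chr6:144103969-144105645, 40482 bp from the start, with 6.72-fold and 141.4. All 9 CTCF peaks of PLAGL1 overlapped an SMC1 peak, and 4 of the 12 SMC1 peaks overlapped no CTCF peak, with folds of 1.94 to 4.82.

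The promoter that PLAGL1 shares with the lncRNA HYMAI, known as the imprinting control region of this domain, had no peak. Its RefSeq window, chr6:144008210-144008509, had a G and C content of 75.7%, a ratio of observed to expected CpG of 0.928, higher than in 84.0% of all promoters, and 2 occurrences of TGCCGC. The nearest SMC1 summit was 4.27 kb and the nearest CTCF summit 5.52 kb away, both on the upstream side, the SMC1 one being a weak peak of 1.94-fold beside the strong intronic site.

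The strong intronic site was the anchor of most loops of PLAGL1. The bin from 144010001 was joined to that from 143940001, at the end of the gene, over 70 kb with 36 read pairs against 14.4 expected (labelled SMC1) and 91 against 20.3 (labelled CTCF), the most pairs of any loop of the 10 genes. It was joined over 435 kb to the bin from 143575001, 28.2 kb from a start of PHACTR2, with 15 against 2.275 and 53 against 3.53, the latter 15.0 times the expectation and above 99.0% of the list. Both were convergent. Next to that bin, those from 143590001, 143570001 and 143565001 gave 27 against 2.285, 23 against 2.47 and 12 against 2.34 in the list labelled CTCF, all within 15 kb of the loop labelled SMC1 to 143575001.

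Upstream, SF3B5, a splicing factor subunit gene, was met from the intronic bin with 29 read pairs against 11.6 and from the bin beside the PLAGL1 start with 37 against 15.1, the latter over 30 kb. A bin short of SF3B5 gave 14 against 5.32, and the bin of the shared promoter with HYMAI met the end of the gene with 17 against 5.88. As at MEST, outer bins were joined past the gene start: those from 143940001 and 144090001 had 80 read pairs against 8.82 over 150 kb (labelled CTCF) and 24 against 6.16 (labelled SMC1), convergent in both.

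**Figure D3:**
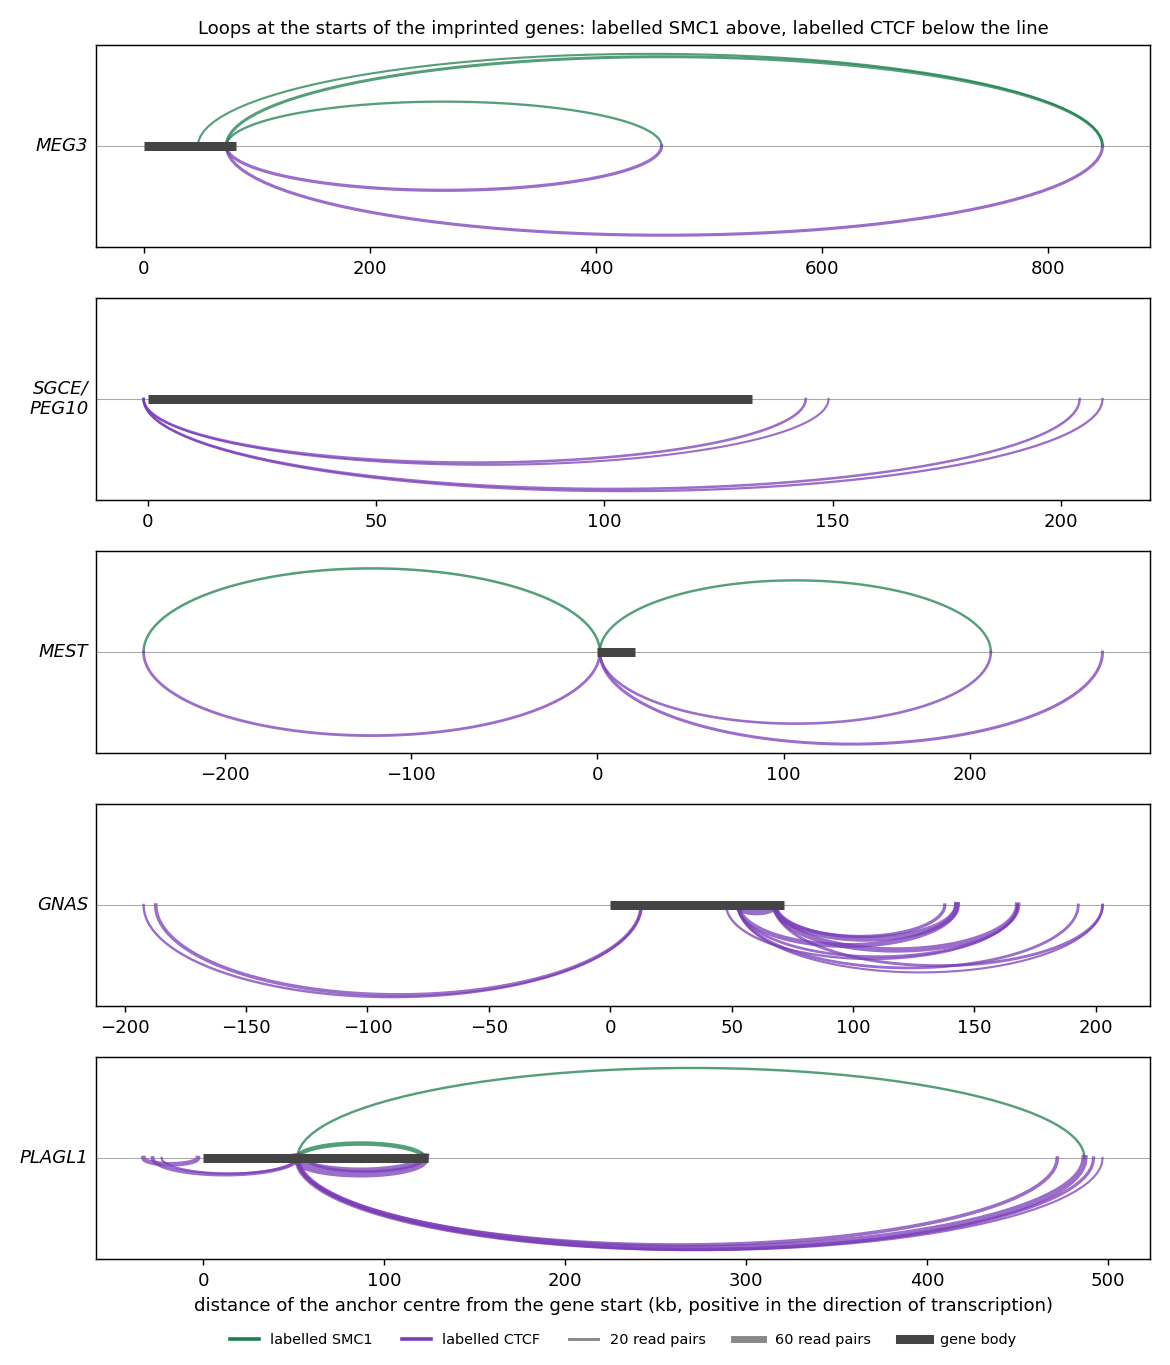
Loops with an anchor within 5 kb of a transcript start, drawn as arcs between anchor centres in kb from the gene start (positive in the direction of transcription), labelled SMC1 in green above and labelled CTCF in purple below, with line width rising with read pairs. Those of MEG3 run 385 to 800 kb downstream, those of SGCE and PEG10 all run over the SGCE body, and GNAS has 12 arcs below the line and none above.

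PEG3 had no peak and no loop. On either side of its start the nearest summits were 258.7 kb upstream, for both targets, and 92.0 kb (CTCF) and 244.6 kb (SMC1) downstream. The stretch without any summit, between the upstream summits and the CTCF summit downstream, spanned 350.7 kb, from 56748722 to 57099392 on chromosome 19, and held the starts of PEG3, of ZIM2, which shares its promoter, and of MIMT1, a lncRNA. It ranked 7 among the 5564 gaps of this chromosome, the reference had no unknown base in it, and no loop of either label spanned the PEG3 start. On chromosome 19 5.58% of genes had no peak of either target, and 6.24% of protein-coding genes did overall. Reads of repeated sequence were removed by the mapping quality filter, and the share of the PEG3 stretch that reads could be placed in was not measured.

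**Figure D4:**
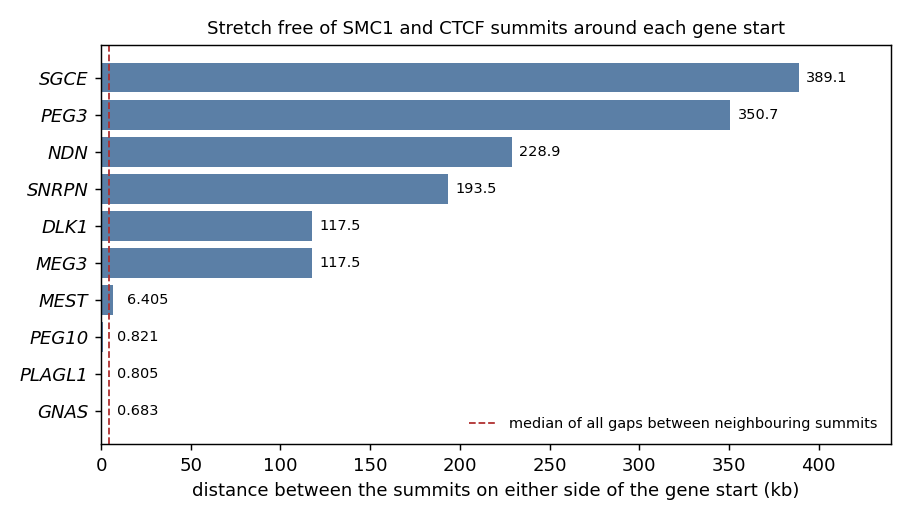
Distance in kb between the 2 summits (of either target) on either side of each gene start, with the median of all 159701 gaps as a dashed line. SGCE (389.1 kb) and PEG3 (350.7 kb) had the longest, and GNAS, PLAGL1 and PEG10 had less than 1 kb.

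Summit-free stretches divided the genes. At 6 of the 10 genes, SGCE, PEG3, NDN, SNRPN, DLK1 and MEG3 (the last 2 in the same stretch), the gene start lay in or at the edge of a stretch of 117.5 kb or more, longer than 97.4% to 99.6% of all gaps. The SGCE start itself was occupied, 2 bp from the summits of a CTCF peak (10.9-fold) and an SMC1 peak (6.05-fold). The PEG10 start, on the same promoter, lay on the other side of these summits. A long gap holds more positions than a short one, and 21.6% of all gene starts between 2 summits lay in a stretch of at least 100 kb. At GNAS, PLAGL1, PEG10 and MEST the gene start lay between summits 0.683 to 6.405 kb apart. At SNRPN both SMC1 peaks, and at MEG3 the weaker CTCF peak, stood at later annotated starts of the gene. The stronger CTCF peak and the SMC1 peak of MEG3 had summits 4201 and 4486 bp from the nearest MEG3 start.

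Over all of their peaks, the genes differed little from the lists. The median fold enrichment was 4.05 for the 38 SMC1 peaks and 3.32 for the whole list, and 5.72 for the 26 CTCF peaks and 5.01 for the whole list. Of the SMC1 peaks, 19 of 38 overlapped a CTCF peak (50%, 34.8 to 65.2), against 47.1% of the list. Of the CTCF peaks, 20 of 26 overlapped an SMC1 peak (76.9%, 57.9 to 89.0), against 75.9%. Anchors of their own label held 9 of the 38 SMC1 peaks (23.7%, against 22.0%) and 17 of the 26 CTCF peaks (65.4%, against 55.3%). For each of these 4 shares the Wilson interval held the share of the list. The 6 CTCF peaks without cohesin were those of DLK1, the MEG3 start, the upstream site of MEST and 3 in GNAS, and none of them exceeded 5.1-fold.

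Loops labelled SMC1 were present at 3 of 10 genes (27.0% of all genes, 35.1% of protein-coding genes) and loops labelled CTCF at 6 (47.6% and 59.0%). The 3 genes, MEG3, MEST and PLAGL1, were also among the 6, and PEG10, SGCE and GNAS had loops labelled CTCF only. Of the 7 loops labelled SMC1, 6 were matched in the other list within 15 kb at each anchor (85.7%, 48.7 to 97.4, against 91.7% of the list), and of the 30 labelled CTCF, 10 were (33.3%, 19.2 to 51.2, against 53.4%). The second interval lies below the share of the list, with loops that share anchors and 12 of the 30 at GNAS, where none was matched. Where both anchors held a motif in their CTCF peak of highest −log10 q, 5 of 6 loops labelled SMC1 and 8 of 14 labelled CTCF were convergent. The shares of the lists were 62.2% and 64.4%.

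The loops labelled SMC1 were longer than usual, with a median span of 385 kb against 130 kb in the list, and had fewer read pairs, 15 against 21, but more over the expectation, 6.59 against 4.004 times. For the loops labelled CTCF the medians were 147.5 against 125 kb, 20.5 against 23 read pairs and 4.37 against 4.03 times. The first set of medians rests on only 7 loops at 3 genes, which share anchors, and 3 of the 7 are loops of MEG3.

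**Figure D5:**
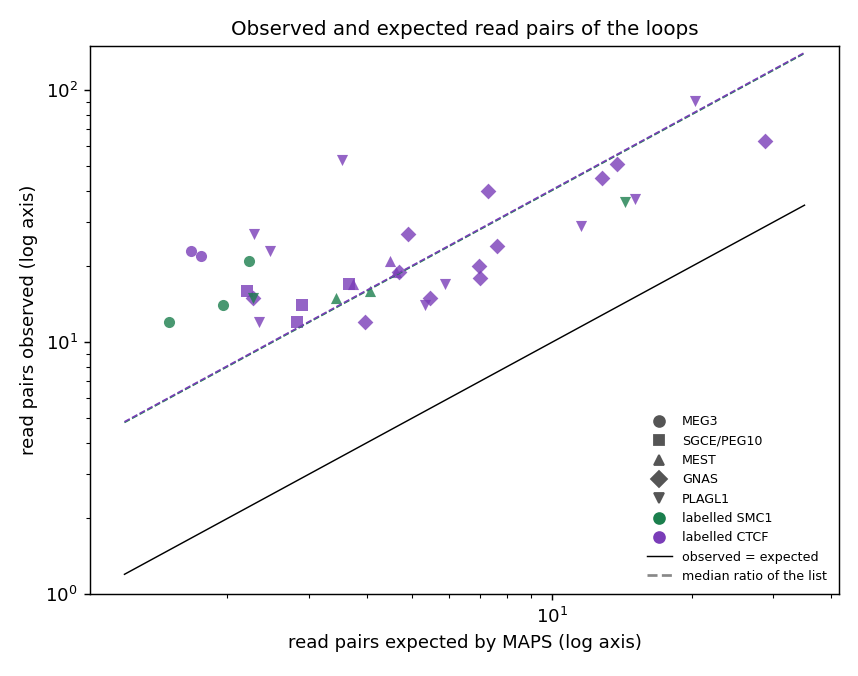
Read pairs observed in each loop against those expected by MAPS, both on log axes, by gene (shape) and label (colour), with the line of equality and the median ratio of each list dashed (4.004 and 4.031, which overlap). The loops of MEG3 and the 435 kb loop of PLAGL1 (53 against 3.53) lie far above the dashed lines, and the short loops of GNAS and PLAGL1 with most pairs lie under or near them.

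Among 26 further genes of the same imprinted domains, 22 had an SMC1 peak (87.5% of all genes did) and 18 a CTCF peak (86.7%) in their windows, and 13 (48.9%) and 8 (35.6%) had one within 1 kb of a transcript start. Loops labelled SMC1 were found at 2 of the 26 (27.0% of all genes), MESTIT1 and HYMAI, whose starts lie beside those of MEST and PLAGL1 and share their loops, and loops labelled CTCF at 7 (47.6%). On chromosome 14, RTL1, MEG9 and DIO3 had no CTCF peak in their windows, and MEG8 had 1 SMC1 peak of 3.33-fold at a start. On chromosome 19, ZIM2 and MIMT1 were as empty as PEG3, whereas USP29 and ZIM3, beyond the stretch, had 2 CTCF peaks each with 2 and 4 SMC1 peaks.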

How the data were processed

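SMC1 FA-EGS HiChIP and CTCF FA HiChIP of HG00731 were taken as 1 pooled peak list and 1 pooled loop list per target. For both targets the authors mapped reads with BWA-MEM 0.7.17 (hg38), filtered them at a MapQ over 30 and for duplicates, and pooled 2 biological replicates. They called peaks with MACS3 3.0.1 (q-value of 0.01, extension of 200 bp, no input) and loops with MAPS on 5 kb bins. The authors deposited for each peak a fold enrichment over the local background (a ratio) and a −log10 q-value. For each loop they deposited a raw count of read pairs, the expected signal of the MAPS regression and a q-value (FDR), the last of which was not used further. The read depth of each library is not given in the lists, and the study reports more reads in all for SMC1 than for CTCF. Without values per replicate, no spread was at hand to weigh any value.

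Genes and transcript starts came from GENCODE release 44, promoters from RefSeq on hg38. Overlap meant at least 1 bp, and loops were matched within 15 kb at each anchor. The CTCF motif (19 bp, 12.4 bits) was learned by expectation maximisation from 3000 summits with 50 bases on either side. The orientation of an anchor is that of the best match of at least 10 bits in its CTCF peak of highest −log10 q. Shares carry 95% Wilson intervals, which cover counting error only. No test was run, since the lists used here are of pooled replicates. The share of gene starts in long stretches and of loops with a peak in an anchor were added after the values were seen. All 10 genes are named, each with its peaks of highest −log10 q, those at its starts and its loops of most read pairs, and the 26 genes of the same domains were counted as a list. The genes and lists were chosen with earlier results of these data known. The counting was tested on simulated data, where all counts were recovered in 300 of 300 test genes. Python 3.11.15, NumPy 2.4.6, SciPy 1.17.1 and pandas 2.3.3 were used. Values of some genes that were looked up are not reported here.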

Additional observations from a re-analysis of the deposited data

How the results depend on the processing

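Of 43 alternatives over 13 counts and shares, 28 left the value within 1.5 times the reported one or within its counting interval, and 15 did not. With peaks of −log10 q of at least 10 only, the SMC1 peaks fell from 38 to 25 and their share overlapping CTCF rose from 50% to 68.0%. The 7 loops labelled SMC1 became 3 with the transcript start inside the anchor, 2 with the annotated gene start only and 2 with at least the median read pairs of the list. The 30 loops labelled CTCF became 8 with the annotated gene start only and 13 with at least the median read pairs. The genes with a loop labelled SMC1 went from 3 to 1 with the annotated gene start only, and those with a loop labelled CTCF from 6 to 3 with at least the median read pairs. With the loop lists exchanged, SMC1 had 30 loops at 6 genes and CTCF 7 loops at 3 genes. The CTCF peaks with a motif went from 19 to 11 at 13 bits and to 12 within 100 bp of the summit. Fewer starts or fewer loops enter some of these by construction. For the rest the cause was not tested. The transcript starts matter most at MEG3, GNAS and PLAGL1, whose loops leave starts far inside the gene.

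No paired analysis was possible because the peak and loop lists used here are of pooled replicates, and for the same reason no replicate was left out. A gene without a peak or loop had none past the callers' thresholds. Its depth of reads is not known from the lists, which hold both parental chromosomes together.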
